A study of Mus musculus with 12 samples.

Results

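RNA-seq counts of 39 genes whose proteins fold, compact or anchor chromatin were examined in mouse female germline stem cells (FGSCs) in which *Stella* (*Dppa3*) had been knocked out or overexpressed. The genes were chosen by name as insulator factors, cohesin, condensin, nuclear lamina, heterochromatin proteins and type II topoisomerases, and make up 39 of the 24809 genes in the table. Their names match 77 of its 41388 RefSeq transcripts, matched through the RefSeq accession of each row. The question was whether the RNA of these genes differed when *Stella*, which the study links to chromatin organization, was removed or added.

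4 groups of 3 libraries were compared. KO was a *Stella*-knockout line made with CRISPR/Cas9, and KO-con was the line labelled as its control. Over was a line that overexpressed *Stella* from a lentiviral vector under puromycin selection, and Over-con carried the empty vector. All groups were C57BL/6 cells, beyond passage 20, grown on mitotically inactivated STO fibroblast feeders. The knockout was 1 randomly chosen clone, so the effect of the lost gene and that of the clone cannot be told apart. Likewise, the effect of added *Stella* cannot be told apart from another difference between the Over and Over-con lines. The sources used here do not say whether the 3 libraries of a group came from separate cultures, so p-values measure the spread between these libraries only, which may be technical.

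Chromatin in the nucleus is shaped by ring-like protein machines. Cohesin holds sister chromatids together and extrudes DNA loops that stop at bound CTCF, and condensin compacts chromosomes for mitosis together with topoisomerase II. Lamins and their partner LBR line the inner nuclear membrane and hold silent chromatin at the nuclear edge, where HP1 proteins bind the histone mark H3K9me3 that SUV39H and SETDB1 enzymes deposit. In growing oocytes and primordial germ cells the repressive marks and their readers are reorganized during the reprogramming of the genome.

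Totals lay between 5611846 and 12866545 counts per library, with a median of 10221419. *Dppa3* itself had 0 counts in every KO, KO-con and Over-con library and 347, 371 and 285 counts in the Over libraries, so its counts checked the overexpression label but not the knockout label. No *Stella* RNA was therefore counted in KO-con, and these counts do not show its loss in KO. The paper reports *Stella* in its FGSCs by RT-PCR and immunofluorescence. Of 14 germ cell markers, 10 stood at 3 counts or fewer in every library. 5 of these have 1 listed transcript (*Mael*, *Sohlh1*, *Figla*, *Nobox*, *Zp3*), and 5 have more (*Ddx4*, *Dazl*, *Pou5f1*, *Nanos3*, *Tfap2c*). *Ifitm3* made up most of the summed germ cell level of 77.4 to 165 CPM (counts scaled to a common library size with TMM factors over all 12 libraries). The summed level of 13 fibroblast markers, led by *Vim*, was 3023 to 3055 CPM in KO-con, 2993 to 3210 in KO, 3234 to 3484 in Over-con and 2975 to 3117 in Over, with 4 of the 13 at 3 counts or fewer throughout. Over thus lay below Over-con without overlap, while KO overlapped KO-con. The summed level of 8 macrophage markers, nearly all of it *Cd68*, was 27.5 to 34.8 CPM in KO-con, 39.6 to 47.3 in KO, 29.6 to 33.4 in Over-con and 42.1 to 43.4 in Over, with 4 of the 8 at 3 counts or fewer and *Adgre1* at 0. Both treated groups lay above their controls without overlap. The part of either marker list in the results was not tested. Ovarian somatic markers summed to 5.64 to 9.15 CPM (5 of 8, *Foxl2* at 0), and erythroid and T cell markers to at most 1.23 CPM (3 of 4). In bulk libraries, a change in the share of a cell type and a change in RNA per cell cannot be told apart.

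Members with more than 1 listed transcript were tested less often than those with 1. 18 members have 1 listed transcript, and all 18 had enough counts to be tested. The other 21 have 2 or more, and 7 of these had a transcript tested in any comparison (*Stag2*, *Nipbl*, *Hdac8*, *Lmna*, *Lmnb2*, *Cbx1* and *Cbx3*). 14 members were tested nowhere. 5 of them, *Ctcf* (the insulator protein), *Ncaph2* (a condensin II subunit) and the H3K9 methyltransferase genes *Setdb1*, *Ehmt1* and *Ehmt2*, had 0 counts in all 12 libraries. The other 9 (*Stag1*, *Mau2*, *Wapl*, *Pds5b*, *Smc2*, *Smc4*, *Cbx5*, *Suv39h1* and *Suv39h2*) never exceeded 5 counts in a library. The same split ran through the whole table. In the knockout comparison, 42.9% of all genes with 1 listed transcript were tested against 22.9% of those with more. Genes with 1 listed transcript held 95.7% of the counts. These 14 members were not measured, and their counts give no level for *Ctcf* or for the H3K9 methyltransferases.

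**Figure D1:**
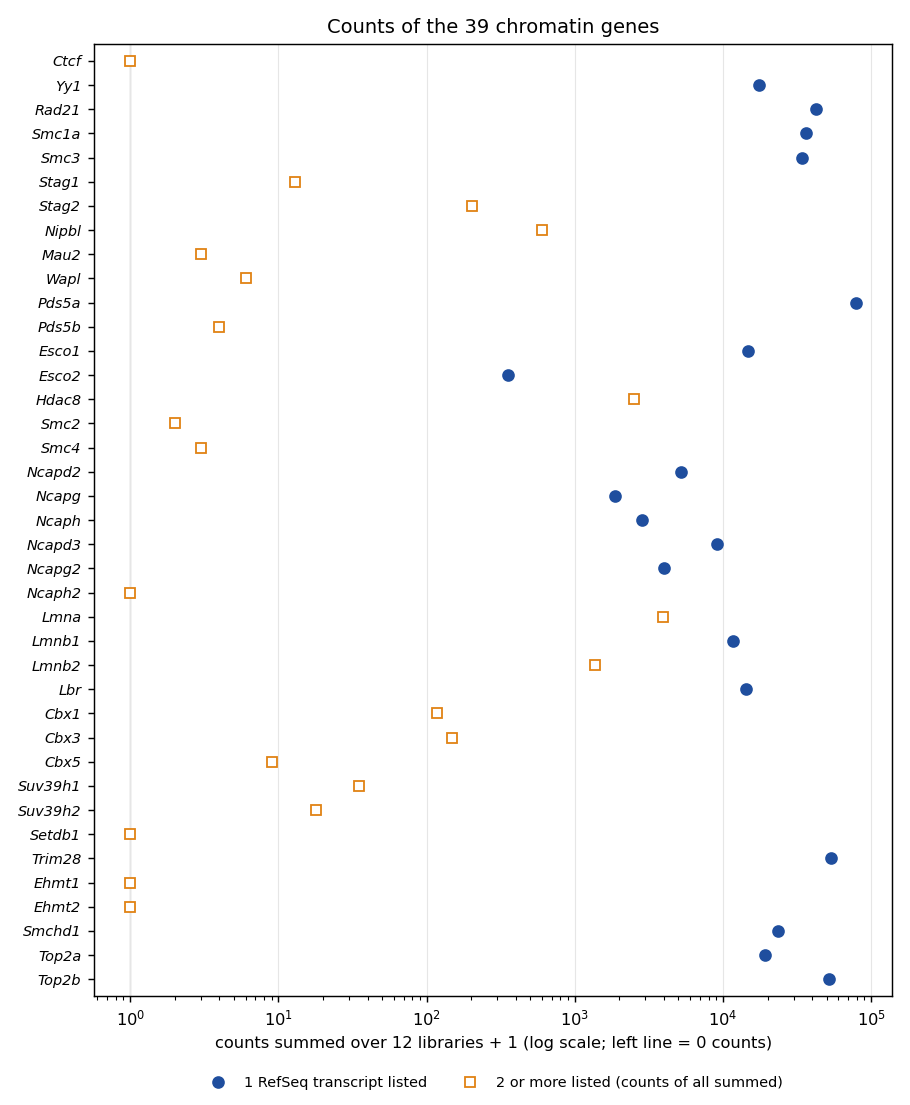
Counts of each of the 39 genes, summed over 12 libraries and over its listed transcripts, plus 1 on a log axis; filled circles have 1 listed RefSeq transcript and open squares 2 or more. All 18 genes with 1 transcript lie at 355 counts or above, whereas 5 genes with more lie at 0.

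Among the 25 members with a tested transcript, values spanned about 3 orders of magnitude on the scale of CPM per kilobase of exons in the mm9 annotation. The low end rests mostly on members with more than 1 listed transcript. *Pds5a*, which encodes a cohesin release and maintenance factor, had the highest level, at 159 ± 3.03 CPM per kb in KO-con (SD, n = 3), followed by *Trim28* at 116 ± 4.31 and the cohesin gene *Rad21* at 98.3 ± 6.22. *Smc1a* (52.0 ± 2.13) and *Smc3* (54.0 ± 2.90), the ATPase arms of the cohesin ring, lay within each other's spread. Condensin genes were lower, from 13.8 ± 1.03 CPM per kb for *Ncapd3* down to 1.68 ± 0.0256 for *Ncapg*. The lowest were *Esco2*, *Nipbl*, *Cbx3*, *Cbx1* and *Stag2*, all under 1 CPM per kb in every group, and all but *Esco2* have more than 1 listed transcript. Of the members with 1 listed transcript, *Esco2* was the lowest, at 0.473 ± 0.0612 in KO-con. *Lmna* (6.83 ± 0.607) and *Ncapd2* (8.26 ± 0.519) differed by more than their spreads in KO-con but not in Over-con, where *Lmna* was at 8.70 ± 0.948 and *Ncapd2* at 8.55 ± 0.169. Exon lengths are those of an annotation that may lack parts of a transcript, so the order is approximate. For members with more than 1 listed transcript, *Lmna* among them, counts of the tested transcript were divided by the exons of the whole gene. Their values are therefore not levels of the gene and may lie too low.

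**Figure D2:**
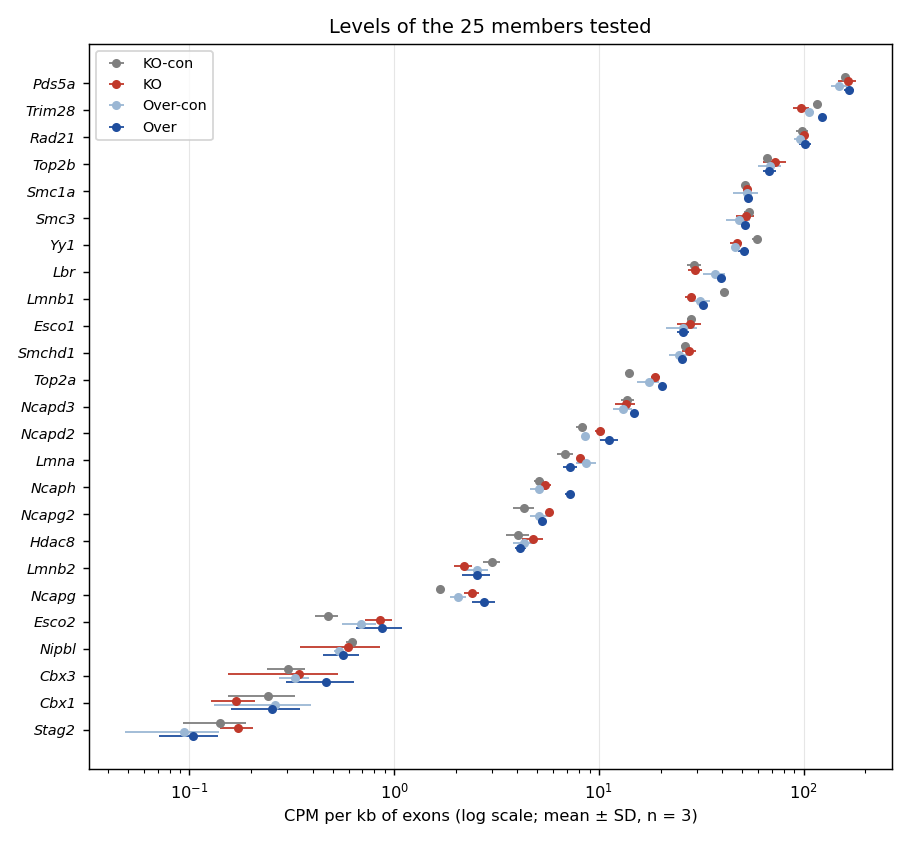
CPM per kilobase of annotated exons (log axis) for the 25 members with a tested transcript, with the mean ± SD of 3 libraries in each of the 4 groups. Genes order from *Pds5a* at the top to *Stag2* at the bottom, and the groups lie close together beside the distance between genes.

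Some of the measured genes changed, and none changed by as much as 2-fold. Each transcript was tested with edgeR's quasi-likelihood test over the whole table, with Benjamini-Hochberg adjustment, and called at an adjusted p under 0.05. In KO against KO-con 6 of 24 members were called, 4 higher (*Top2a*, *Ncapg*, *Ncapg2*, *Ncapd2*) and 2 lower (*Lmnb1*, *Yy1*). Over all 9457 transcripts tested in that comparison 11.8% were called, 5.83% higher and 5.96% lower. In Over against Over-con 2 of 24 members were called, both higher (*Ncaph* and *Ncapd2*), beside 1.65% of all 9401 transcripts, 0.766% higher and 0.883% lower. The median log2 difference over the members was 0.059 in the knockout comparison and 0.094 in the overexpression comparison, where all tested transcripts had medians of 0.0067 and -0.0012. None of the members met the study's own rule, which adds an absolute log2 fold change over 1 and which 1.7% of all transcripts met in the knockout and 0.17% in the overexpression comparison. The largest difference among them was 0.86, for *Esco2*. For 11 of the 24 members all 3 libraries of KO lay on 1 side of KO-con, as for 30.5% of all transcripts, and for 8 of 24 this was so in Over, as for 19.3%. An exact permutation test of 1 gene with 3 libraries a side can reach no p below 0.10.

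**Figure D3:**
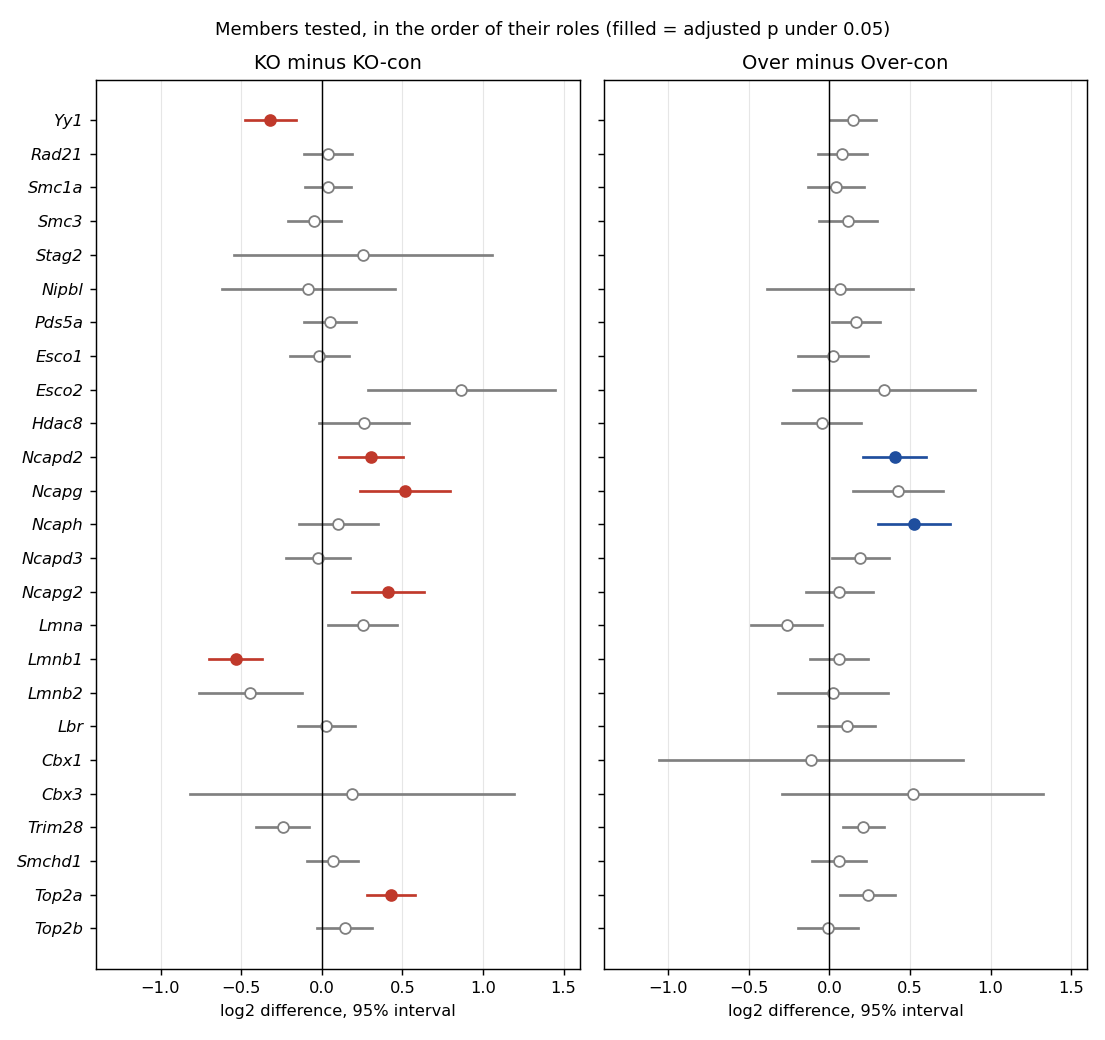
Log2 differences with 95% intervals for the members tested, KO minus KO-con on the left and Over minus Over-con on the right, in the order of their roles; filled points have an adjusted p under 0.05. Filled points on the left are the condensin genes *Ncapd2*, *Ncapg* and *Ncapg2*, *Top2a*, *Lmnb1* and *Yy1*, and on the right *Ncapd2* and *Ncaph*; the cohesin genes are open on both sides.

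Condensin and topoisomerase genes made up all the members that rose. Condensin I and condensin II share the SMC2 and SMC4 arms, whose genes were not measured, and differ in the subunits that close the ring. Of the 8 condensin genes 5 were tested. In the knockout comparison 3 of these were called, beside 11.8% of all transcripts, and in the overexpression comparison 2, beside 1.65%.

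*Ncapg* encodes the HEAT-repeat subunit G of condensin I. It stood at 11.8, 12.1 and 11.8 CPM in KO-con, at 17.9, 17.6 and 15.3 in KO, at 15.0, 15.5 and 13.1 in Over-con and at 19.8, 16.7 and 21.6 in Over. Every KO library was above every KO-con library, and every Over library above every Over-con library. The log2 difference was 0.52 (standard error 0.13, adjusted p = 0.0168) in the knockout and 0.43 (0.13, adjusted p = 0.138) in the overexpression comparison. The gene lies on chromosome 5 from 46061161 to 46091783 in mm9, where 942 of its exonic bases overlap *Lcorl* on the opposite strand. The strand setting of the counting is not given in the sources used here, so reads in that overlap cannot be assigned to 1 of the genes. The knockout call of *Ncapg* was lost without KO replicate 2 or any 1 of the KO-con replicates, with adjusted p between 0.0562 and 0.0713.

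*Ncapd2* (chromosome 6 from 125118027 to 125141613), for the other HEAT-repeat subunit of condensin I, was called in both comparisons. Its libraries were at 35.5, 36.6 and 40.0 CPM in KO-con, 43.8, 48.8 and 44.7 in KO, 39.5, 38.6 and 37.9 in Over-con, and 56.7, 47.9 and 48.0 in Over. Neither treated group overlapped its control. The log2 difference was 0.30 (standard error 0.094, adjusted p = 0.0467) for KO and 0.40 (0.091, adjusted p = 0.0357) for Over. Of the calls in the 2 comparisons these were kept in the fewest fits: each held in 1 of the 6 fits that left out a library, the knockout call without KO replicate 1 and the overexpression call without Over-con replicate 3. The knockout call was also lost with DESeq2 (adjusted p = 0.0704), with DESeq2's size factors in edgeR (adjusted p = 0.0525) and without a filter on low counts (adjusted p = 0.0724).

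*Ncaph* (chromosome 2 from 126929545 to 126959690), whose kleisin protein closes the condensin I ring, was called in Over and not in KO. Over libraries stood at 30.4, 30.3 and 27.9 CPM against 19.8, 23.1 and 19.7 in Over-con, with no overlap, a log2 difference of 0.52 (standard error 0.10, adjusted p = 0.0182). KO libraries at 20.4, 23.0 and 23.6 CPM overlapped KO-con at 20.6, 22.3 and 19.9 (log2 difference 0.10, adjusted p = 0.647). The direct test of the difference between both effects gave -0.42 (standard error 0.15, adjusted p = 0.0847) and did not pass. The overexpression call was lost without Over replicate 1, 2 or 3 or Over-con replicate 1, with adjusted p up to 0.123.

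The condensin II genes split. *Ncapg2* (chromosome 12 from 117643875 to 117702004) was at 25.03, 29.1 and 31.6 CPM in KO-con and at 38.6, 36.3 and 38.5 in KO, without overlap (log2 difference 0.41, standard error 0.11, adjusted p = 0.0181), a call lost without KO-con replicate 1 (adjusted p = 0.126) or 2 (adjusted p = 0.0575). In Over-con it was at 34.3, 37.0 and 30.3 CPM and in Over at 35.5, 35.7 and 33.3, which overlap (0.06, adjusted p = 0.849). *Ncapd3* had log2 differences of -0.02 (adjusted p = 0.908) in the knockout and 0.19 (adjusted p = 0.341) in the overexpression comparison.

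Topoisomerase II passes 1 DNA duplex through another, and its alpha form, *Top2a*, is made in dividing cells whereas *Top2b* is also present in resting cells. *Top2a* (chromosome 11 from 98854257 to 98885503 in mm9, sharing 122 exonic bases with *SNORA32* on the same strand) was at 131, 121 and 131 CPM in KO-con and at 181, 165 and 168 in KO. The groups did not overlap, and the log2 difference was 0.43 (standard error 0.070, adjusted p = 0.000849), a call that held in all 6 fits without 1 library. Over-con libraries were at 159, 178 and 139 CPM and Over libraries at 180.0, 190.2 and 185, again without overlap but with a smaller difference (0.24, standard error 0.081, adjusted p = 0.191). *Top2b* differed by 0.14 (adjusted p = 0.304) and -0.01 (adjusted p = 0.979).

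Markers of dividing cells moved with these genes. The summed level of 20 proliferation markers, 16 of them tested, was 599.6 to 623 CPM in KO-con, 723 to 813 in KO, 737 to 756 in Over-con and 899 to 906 in Over. 5 markers rose in KO (*Mki67*, *Aurkb*, *Rrm2*, *Mcm2* and *Mcm4*) and none fell, and 1 rose in Over (*Mcm3*, log2 difference 0.31, adjusted p = 0.0449). Of all transcripts 5.83% were higher and 5.96% lower in KO, and 0.766% and 0.883% in Over. *Mki67* differed by 0.55 in KO (adjusted p = 0.000595) and by 0.32 in Over, where it was not called (adjusted p = 0.0933). In CCK-8 and EdU assays the study found more proliferation after knockout and less after overexpression. Its G2/M share of cells rose after knockout and fell after overexpression. The marker sum here lay above the control in both lines, so in Over it ran opposite to those assays, which measure something other than RNA. The part of cell division in the condensin and *Top2a* values was not tested.

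The promoters of the 4 members that rose in KO are shown because each holds a cell cycle homology region (CHR), a motif at many genes transcribed in G2 and mitosis. CHR was searched as TTTGAA or TTCGAA on both strands. A 200-base stretch upstream of each start is printed 5′ to 3′ along the gene, from RefSeq on GRCm38.p6, with CHR letters of either strand in capitals. They are chr11:99024190-99024389 on the minus strand for *Top2a*, chr5:45669725-45669924 on the plus strand for *Ncapg*, chr12:116405236-116405435 on the plus strand for *Ncapg2* and chr6:125191587-125191786 on the minus strand for *Ncapd2*.
Top2a: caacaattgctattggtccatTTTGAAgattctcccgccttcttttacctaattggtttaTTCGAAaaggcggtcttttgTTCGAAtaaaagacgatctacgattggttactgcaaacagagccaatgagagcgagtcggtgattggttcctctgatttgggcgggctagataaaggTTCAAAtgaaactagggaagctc
Ncapg: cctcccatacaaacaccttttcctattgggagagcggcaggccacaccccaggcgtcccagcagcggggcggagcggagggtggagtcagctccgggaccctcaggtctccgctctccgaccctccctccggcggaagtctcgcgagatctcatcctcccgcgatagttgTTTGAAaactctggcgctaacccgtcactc
Ncapg2: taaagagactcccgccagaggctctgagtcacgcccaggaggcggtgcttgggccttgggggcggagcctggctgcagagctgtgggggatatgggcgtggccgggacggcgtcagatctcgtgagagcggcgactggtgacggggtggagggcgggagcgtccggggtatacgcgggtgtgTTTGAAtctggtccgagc
Ncapd2: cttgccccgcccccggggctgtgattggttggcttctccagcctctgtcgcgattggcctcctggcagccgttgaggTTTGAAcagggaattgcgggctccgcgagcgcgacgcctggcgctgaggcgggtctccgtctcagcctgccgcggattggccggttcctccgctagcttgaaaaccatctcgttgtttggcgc
*Top2a* holds 4 such words in this stretch and the others 1 each. A gene was counted if any of its windows of 300 bases (250 before the start) held a word. CHR occurred in 14 of the 32 members with a window, 43.8%, and in 21.7% of all 27025 genes with one. Besides the 4 printed these were *Ctcf*, *Hdac8*, *Lbr*, *Mau2*, *Ncapd3*, *Ncaph2*, *Pds5b*, *Smc2*, *Smchd1* and *Suv39h2*, none of them called in KO and several not tested. The words TTTGGCGC, TTTCGCGC and TTTCCCGC of the E2F site occurred in 7 of 32 members (21.9%) against 2.12% of all genes. They were *Ncapd2*, *Ncapg* and *Ncapg2*, and *Cbx3*, *Pds5a*, *Smc1a* and *Stag1*, which were not called in KO or not tested. CCAAT occurred in 15 of 32 (46.9%) against 41.1%, among them *Top2a*, *Ncapg* and *Ncapd2*. The rest, such as *Top2b*, *Smc1a* and *Lbr*, were not called in KO or not tested. *Ncaph* and *Yy1* held none of these words. *Lmnb1*, also called in KO, had no window and was not searched. A word in a window is a description and does not show that a factor binds there.

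The lamina gene *Lmnb1* had the largest decrease among the members tested in KO. The gene encodes lamin B1 (chromosome 18 from 56867467 to 56913078 in mm9), which lines the nuclear envelope of most cell types. KO-con libraries were at 126, 114 and 125 CPM and KO libraries at 77.3, 85.3 and 87.4, with a clear gap between the groups. The log2 difference was -0.53 (standard error 0.079, adjusted p = 0.000351), 1.45-fold lower, and the call held in all 6 fits without 1 library. Over-con stood at 81.6, 104 and 92.5 CPM and Over at 99.7, 95.1 and 91.7, which overlap (0.06, adjusted p = 0.824). The difference between both effects was itself past the threshold at -0.59 (standard error 0.12, adjusted p = 0.00278).

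The other lamina genes had no call in either comparison. *Lmnb2*, for lamin B2, had a log2 difference of -0.44 in KO (standard error 0.15, adjusted p = 0.0699) with groups that did not overlap, and 0.02 in Over. *Lbr*, the lamin B receptor that tethers heterochromatin, had 0.03 in KO and 0.11 in Over. *Lmna* (chromosome 3 from 88285070 to 88313878), for the A-type lamins, is represented by the listed transcript NM_001002011, 1 of 3 listed. That transcript stood at 27.2, 27.9 and 32.0 CPM in KO-con, 34.8, 34.0 and 34.4 in KO, 38.5, 32.4 and 40.0 in Over-con and 28.1, 31.7 and 32.8 in Over. The log2 difference in KO was 0.25 (adjusted p = 0.121), that in Over was -0.26 (adjusted p = 0.276), and the difference between them passed at 0.52 (standard error 0.14, adjusted p = 0.0269). That call held in 6 of the 12 fits that left out a library, with adjusted p of up to 0.0893.

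**Figure D4:**
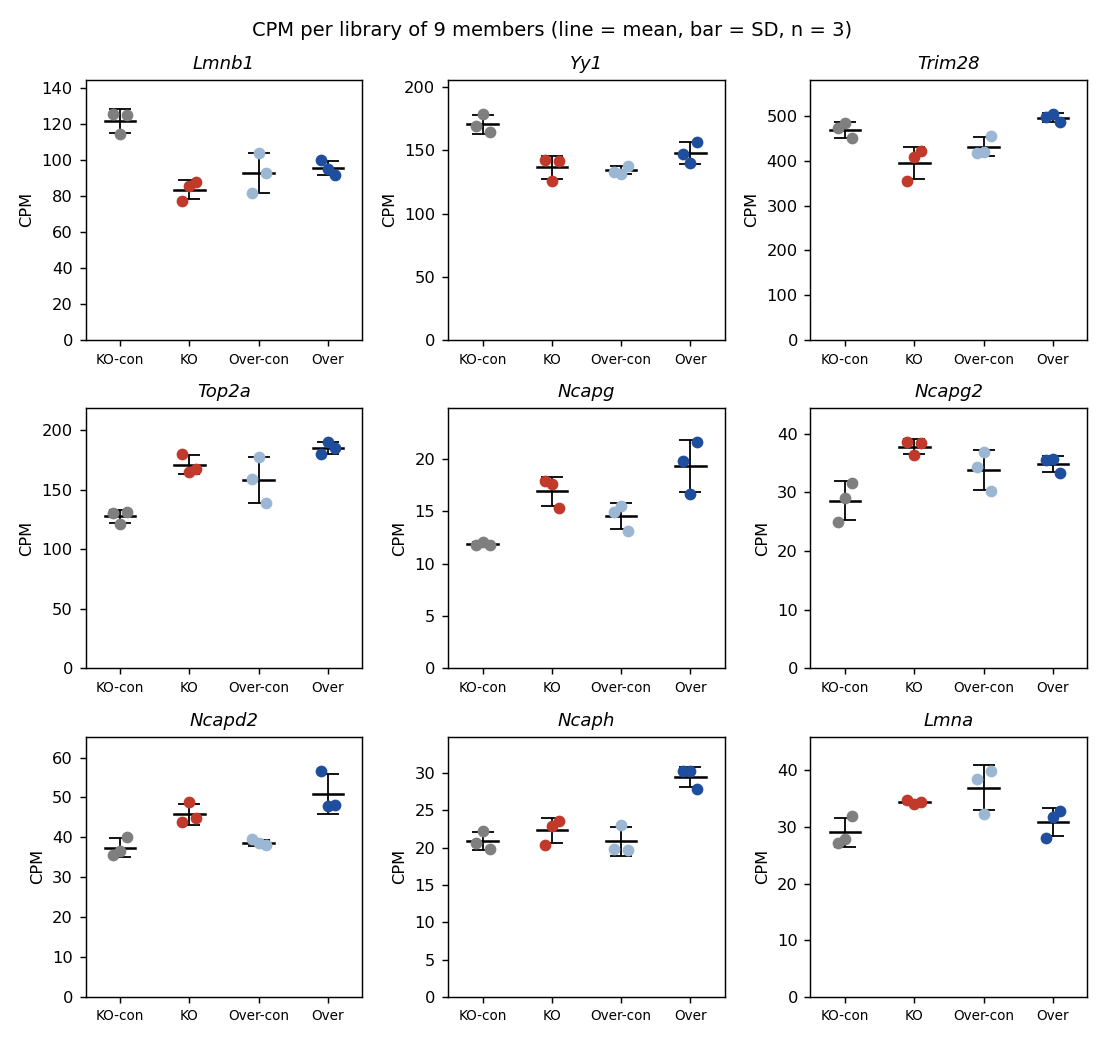
CPM of 9 members in each of the 12 libraries, by group, from 0 upward; points are libraries, the line is the mean and the bar the SD of 3. KO-con stands above the other 3 groups for *Lmnb1* and *Yy1* and below them for *Ncapg* and *Top2a*; Over stands above all others for *Ncaph*.

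*Yy1*, the zinc-finger factor that bridges promoters and enhancers, was the only insulator gene measured. It was at 169, 179 and 164 CPM in KO-con and at 143, 126 and 141 in KO, a log2 difference of -0.32 (standard error 0.074, adjusted p = 0.00987) with no overlap. Over-con libraries were at 133, 132 and 138 CPM and Over libraries at 147, 139.8 and 157, also without overlap, with the opposite sign but no call (0.15, standard error 0.067, adjusted p = 0.376). The difference between both effects passed (-0.46, standard error 0.098, adjusted p = 0.00495). The knockout call was lost without KO replicate 2 (adjusted p = 0.0653) or KO-con replicate 2 (adjusted p = 0.0706). *Yy1* lies on chromosome 12 from 110031183 to 110054842 in mm9, with no overlapping gene.

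No cohesin gene was called by edgeR with its own control, though *Esco2* came close. Of its 13 genes 9 were tested in the knockout and 8 in the overexpression comparison. The ring genes *Rad21*, *Smc1a*, *Smc3* and *Stag2* had log2 differences between -0.05 and 0.26 in KO, and *Rad21*, *Smc1a* and *Smc3* between 0.04 and 0.11 in Over. For the 3 with deep counts the 95% intervals in KO were narrow: -0.11 to 0.19 for *Rad21*, -0.10 to 0.18 for *Smc1a* and -0.21 to 0.12 for *Smc3*. That of *Stag2*, from -0.55 to 1.06, rests on at most 18 counts a library.

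Among the regulators of cohesin, *Pds5a*, the acetyltransferase gene *Esco1*, the loader gene *Nipbl* and the deacetylase gene *Hdac8* had log2 differences between -0.08 and 0.26 in KO and between -0.05 and 0.16 in Over. *Esco2*, whose enzyme acetylates SMC3 during S phase, had 21, 19 and 15 counts in the KO-con libraries and 25, 40 and 43 in the KO libraries. Its groups did not overlap, at 1.70 to 2.17 CPM against 2.88 to 3.90. The log2 difference was 0.86 (standard error 0.27), just outside the threshold (adjusted p = 0.051), and it passed under 5 alternatives: counts summed per gene (adjusted p = 0.0495), all 12 libraries in 1 fit (0.0375), at least 10 counts in every library (0.0338), scaling to library totals (0.0419) and the fit without KO replicate 1 (0.0343). An unadjusted p under 0.05 was reached by *Esco2* in the knockout and by *Pds5a* in the overexpression comparison, and DESeq2 and limma-voom called none of the cohesin genes in either.

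Heterochromatin was represented by few measured genes. *Trim28* (chromosome 7 from 13609501 to 13616384) encodes KAP1, the corepressor that brings SETDB1 to transposons and imprinted genes. It stood at 473, 484 and 450.0 CPM in KO-con, 354, 407 and 422 in KO, 418, 419 and 456 in Over-con and 499, 505 and 486 in Over. In neither pair did the groups overlap, KO lying below its control and Over above. The log2 difference was -0.24 in KO (standard error 0.077, adjusted p = 0.0517) and 0.21 in Over (standard error 0.060, adjusted p = 0.105). The difference between the effects passed at -0.45 (standard error 0.097, adjusted p = 0.00547). The knockout difference passed in DESeq2, limma-voom and several other settings, with adjusted p of 0.0293 in DESeq2 and 0.042 in limma-voom.

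*Smchd1*, an SMC-like protein of the inactive X chromosome, had log2 differences of 0.07 in KO (95% interval -0.09 to 0.23) and 0.06 in Over (-0.11 to 0.22). The HP1 genes were barely counted. *Cbx3*, for HP1 gamma, had 5 to 28 counts a library on its tested transcript, with differences of 0.19 in KO (95% interval -0.82 to 1.19) and 0.52 in Over (-0.30 to 1.33). *Cbx1*, for HP1 beta, was tested in Over through the noncoding transcript NR_155761 with 5 to 18 counts a library (-0.11, 95% interval -1.05 to 0.83). All 3 HP1 genes have more than 1 listed transcript, and a change in them was not detectable with so few counts.

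For 4 of 25 members the knockout and overexpression effects differed by the test of the difference, beside 8.64% of all 9903 transcripts in that fit. They were *Lmnb1*, *Yy1* and *Trim28*, lower in the knockout relative to the overexpression effect, and *Lmna*, higher. The condensin and topoisomerase genes were not among them, *Ncaph* having the lowest adjusted p of these.

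The 2 control groups differed from each other for some of the same genes. In KO-con against Over-con 16.3% of all 9321 transcripts were called, 8.08% higher and 8.19% lower, and 5 of 23 members. *Lmnb1* (0.41, adjusted p = 0.00313) and *Yy1* (0.36, adjusted p = 0.00187) were higher in KO-con, and *Lbr* (-0.33, adjusted p = 0.0176), *Top2a* (-0.30, adjusted p = 0.0218) and *Lmna* (-0.36, adjusted p = 0.0308) lower. The calls of *Lmnb1* and *Yy1* held in all 6 fits without 1 library. Those of *Lbr* and *Lmna* were lost without KO-con replicate 1 or 2, with adjusted p of up to 0.154, that of *Lmna* also without Over-con replicate 1 or 3, and that of *Top2a* in every fit but the one without Over-con replicate 3. KO-con, which the knockout comparison also uses, therefore lay away from Over-con in the direction opposite to the knockout difference for *Lmnb1*, *Yy1*, *Top2a* and *Lmna*. The summed proliferation markers also lay lower in KO-con than in Over-con, in each library.

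With the control of the other line in place of its own, none of the 24 members was called in KO, and 2 had an unadjusted p under 0.05, while 7.87% of all transcripts were called. *Lmnb1* then differed by -0.14 (standard error 0.10, adjusted p = 0.51), *Top2a* by 0.12 (0.094, adjusted p = 0.584), *Ncapg* by 0.23 (0.14, adjusted p = 0.422) and *Yy1* by 0.03 (0.081, adjusted p = 0.923), which is within its standard error of 0. These values of single genes were added after seeing the data. Over against KO-con gave 9 calls among 25 members, beside 21.5% of all transcripts: *Ncapd2*, *Ncaph*, *Ncapg*, *Ncapg2*, *Top2a*, *Lbr* and *Esco2* were higher and *Lmnb1* and *Yy1* lower. Against all 6 control libraries together neither line had a called member, with 8 and 7 at an unadjusted p under 0.05. Few of all transcripts were called in these fits: 309 of 9646 in KO and 7 of 9695 in Over. Of the calls made against the own control, *Ncapd2* and *Ncaph* in Over also passed against the other control.

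**Figure D5:**
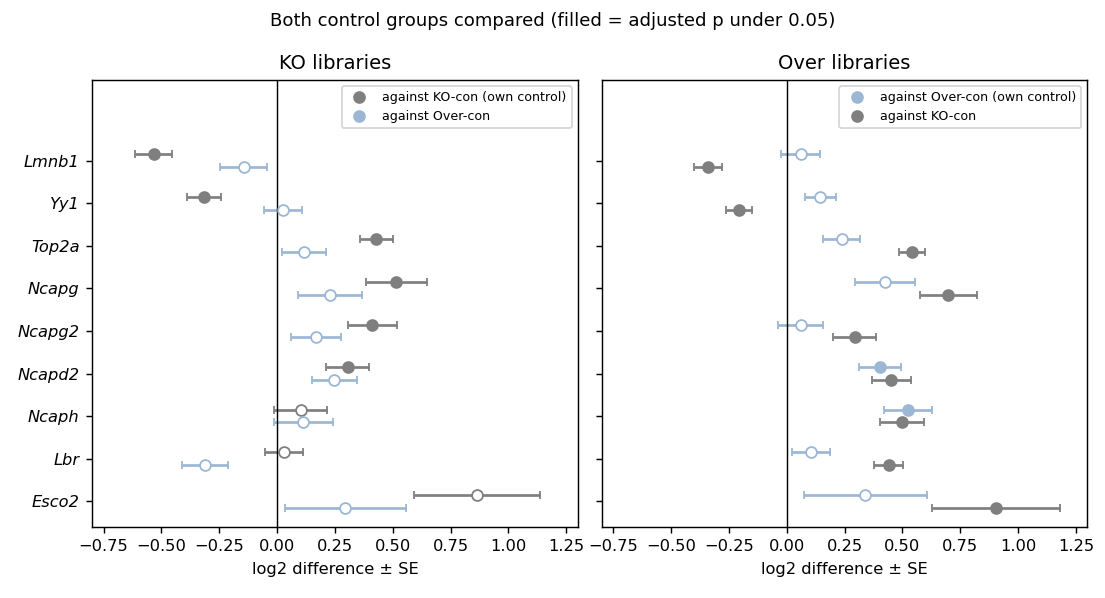
Log2 differences ± standard error for 9 members, of KO libraries on the left and Over libraries on the right, each against its own control and against the control of the other line; filled points have an adjusted p under 0.05. The 9 shown are the members called in Over against KO-con, so all of those points are filled by that choice. All points of KO against Over-con are open.

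The summed level of mast cell markers also separated the groups, mostly through *Cpa3*. Their 12 genes summed to 446 to 502 CPM in KO-con, 1222 to 1311 in KO, 879.7 to 981 in Over-con and 740.1 to 768 in Over, nearly all of it from *Cpa3* and *Il1rl1*. 6 of the 12 were at 3 counts or fewer in every library, with *Fcer1a*, *Ms4a2* and *Tpsab1* at 0 counts. *Cpa3* had means of 401 CPM in KO-con, 1170 in KO, 805.6 in Over-con and 648.7 in Over. *Il1rl1* had 73.2, 76.5, 116.8 and 96.3 in the same order, so it hardly differed between KO-con and KO. By the sum, KO-con was again the group farthest from KO. The part of this signal in the values of the members was not tested.

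Other genes of the same pathways were counted too. Of 106 related genes chosen by pathway, 61 were tested in the KO and in the Over comparison. In KO 5 were higher and 6 lower, beside 11.8% of all transcripts called, and in Over 1 was higher, beside 1.65%. Their median log2 difference was 0.051 in KO and 0.056 in Over.

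Among 14 further cohesin genes, 5 were tested and 2 rose in KO: *Chtf18* (0.64, adjusted p = 0.0171), part of the clamp loader for cohesion, and *Sgo1* (0.53, adjusted p = 0.0474), which protects cohesin at centromeres. Of 10 insulator and looping genes, 6 were tested and *Zfp143*, a zinc-finger factor at loop anchors, fell (-0.33, adjusted p = 0.0194). Of 15 lamina genes, 8 were tested. *Nup153* of the nuclear pore (-0.35, adjusted p = 0.00494) and *Lemd3* of the inner nuclear membrane (-0.30, adjusted p = 0.0362) fell in KO, and *Syne2*, for the nuclear envelope protein nesprin-2, rose.

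*Syne2* was the only one of the 106 called in Over, and it was called in both comparisons. It was at 332, 319 and 293 CPM in KO-con, 450.1, 405 and 422 in KO, 286, 286 and 274 in Over-con and 374, 363 and 369 in Over. The log2 difference was 0.44 in KO (standard error 0.072, adjusted p = 0.000766) and 0.39 in Over (0.058, adjusted p = 0.00155).

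Of 24 related H3K9 and silencing genes, 11 were tested and *Chaf1b*, a histone chaperone subunit used in S phase, rose in KO (0.54, adjusted p = 0.0289). Of 24 Polycomb genes, 18 were tested. *Cbx2* rose (0.40, adjusted p = 0.0077), and *Asxl1* (-0.30, adjusted p = 0.00862) and *Rybp* (-0.31, adjusted p = 0.0448) fell in KO. Of 20 SMC5/6 and other chromosome structure genes, 14 were tested. *Mki67*, whose protein coats mitotic chromosomes and which is also among the proliferation markers, rose and *Eid3*, an SMC5/6 subunit, fell in KO (-0.60, adjusted p = 0.0319).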

How the data were processed

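RNA-seq was performed on 12 libraries of FGSCs, 3 each of KO, KO-con, Over and Over-con, grouped by the sample titles. Reads had been trimmed, aligned to the mm9 genome with HISAT2 and counted per RefSeq transcript by the authors, who deposited raw counts. Strand setting and treatment of shared reads are not given in the sources used here. Totals lay between 5611846 and 12866545 counts, and 3 counts correspond to 0.233 to 0.535 CPM, which covers counting error only. Symbols came from RefSeq (GRCm38.p6) for 41181 of 41388 transcripts. Positions and exon lengths came from the mm9 annotation GENCODE vM1. Promoters for 32 of the 39 members came from RefSeq.

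The members and the lists of related genes and markers were chosen with earlier results of these data known, and 1 related gene is not reported here. Each line was compared with its own control, the controls with each other, and the effects of knockout and overexpression were subtracted. Each comparison was fitted over the whole table with edgeR 4.0.16 (TMM, filterByExpr, glmQLFit, glmQLFTest, Benjamini-Hochberg), at an adjusted p under 0.05. CPM per library were scaled over all 12 libraries. Every member was named, those called with all library values, and up to 3 called genes per related list and direction; further called proliferation markers were named after their values were seen. Alternatives were DESeq2 1.42.0, limma-voom 3.58.1, other scalings and filters, sums per gene, a replicate block, fits without each library, all 12 libraries in 1 fit and other controls; with the latter 2, values of single genes were added after seeing the data. The edgeR fits of the knockout and overexpression comparisons and of the difference between effects were first checked on simulated counts. R 4.3.3 and Python 3.11.15 were used.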

Additional observations from a re-analysis of the deposited data

Results flagged for a closer look

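For 4 members the knockout and overexpression effects differed by edgeR's test of that difference with all 12 libraries in 1 fit. The knockout effect minus the overexpression effect was -0.59 for *Lmnb1* (adjusted p = 0.00278), -0.46 for *Yy1* (adjusted p = 0.00495) and -0.45 for *Trim28* (adjusted p = 0.00547) on the log2 scale. These 3 held in all 12 fits that left out a library. For *Lmna* it was 0.52 (adjusted p = 0.0269), which held in 6 of the 12. Without KO replicate 2, KO-con replicate 1 or 2, Over replicate 1 or 2 or Over-con replicate 1 its adjusted p lay between 0.0539 and 0.0893. Fits without 1 library cannot show a shift shared by a whole group. By edgeR, KO-con was higher than Over-con for *Lmnb1* (0.41, adjusted p = 0.00313) and *Yy1* (0.36, adjusted p = 0.00187). It was lower for *Lmna* (-0.36, adjusted p = 0.0308), and *Trim28* was not called (0.13, adjusted p = 0.2465).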

How the results depend on the processing

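DESeq2, limma-voom, the other scalings and filters, sums per gene and all 12 libraries in 1 fit gave 6 to 8 called members in KO against KO-con, where edgeR gave 6, and 2 in Over against Over-con, 5 in KO-con against Over-con and 4 for the difference between effects, as edgeR did. In KO these were not always the same genes: DESeq2, its size factors and no filter each lost *Ncapd2* and gained *Trim28*. With the study's fold change threshold all 4 comparisons had 0 called members, since no edgeR difference exceeded 1 on the log2 scale. Without 1 library the count was 2 to 7 in KO, 0 to 4 in Over, 2 to 4 between controls and 3 to 4 for the difference between effects. In KO the lowest counts were 2 without KO-con replicate 2 and 3 without KO replicate 2 or KO-con replicate 1. The calls over all transcripts moved too in these fits. They were 613 to 1271 in KO, 48 to 719 in Over, 882 to 1988 between controls and 536 to 1126 for the difference. With every library they were 1115, 155, 1516 and 856. With the replicate block the member counts were 5, 0, 5 and 4, beside 837, 67, 1620 and 733 of all transcripts. *Ncapd2* was lost in KO (adjusted p = 0.0995). In Over *Ncapd2* and *Ncaph* were lost, and 6 members then had an unadjusted p under 0.05. Replicate numbers did not pair the libraries, since deviations of same-numbered libraries correlated between -0.152 and 0.0568. With the control of the other line the member counts were 0 in KO and 9 in Over, beside 737 of 9363 and 2026 of 9413 transcripts. With all 6 controls they were 0 and 0, beside 309 of 9646 and 7 of 9695. Values of single genes with the control of the other line were added after seeing the data. Of the named genes called against either control, the sign in KO changed for *Yy1* (0.025), *Asxl1* (0.0068), *Aurkb* (-0.058), *Mcm4* (-0.15), *Mki67* (-0.0090) and *Nup153* (0.038). None of these was called in KO against Over-con (adjusted p 0.454 to 0.985). In Over it changed for *Yy1* (-0.21), *Lmnb1* (-0.34), *Eid3* (-0.47) and *Nup153* (-0.26), all called against KO-con (adjusted p up to 0.0204). Members called against neither control changed sign too. In KO these were *Smc3*, *Nipbl*, *Esco1*, *Ncapd3*, *Lbr* (-0.31) and *Lmna* (-0.11). In Over they were *Smc3*, *Nipbl*, *Esco1*, *Hdac8*, *Lmnb2*, *Cbx1*, *Smchd1*, *Top2b* and *Lmna* (0.097). The cause was not tested. Few counts limited the tests of *Stag2*, *Cbx1* and *Cbx3*, which have more than 1 listed transcript, and 14 members could not be tested.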
